A study of Homo sapiens with 10 samples.

Results

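AXL, GAS6, TYRO3, MERTK, MET, FGFR1, FGF2, PDGFB, PDGFC and VEGFC, 10 growth factor receptors and ligands, were described in MCF10A cells that carried an empty vector, a TRAM2-overexpression vector or a YAP(5SA)-overexpression vector. The 10 genes were taken by symbol from the 60168 genes listed, and the estimated counts of all transcripts of a gene were summed. Of the 10, 9 passed the filter on low counts, which 15768 genes passed in all, and MERTK did not.

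AXL, TYRO3 and MERTK form the TAM family of receptor tyrosine kinases. GAS6 binds all members of that family, and protein S, the product of PROS1, binds TYRO3 and MERTK. MET is the receptor for hepatocyte growth factor (HGF), FGFR1 is a receptor for fibroblast growth factors, and FGF2 is one of its ligands. PDGFB and PDGFC encode ligands of the platelet-derived growth factor receptors, and VEGFC encodes a ligand of the vascular endothelial growth factor receptors KDR and FLT4. In epithelial cells, AXL and MET are known for their parts in migration, invasion and survival, and AXL is known as a target gene of YAP.

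MCF10A is a non-tumorigenic human mammary epithelial cell line. All cells were grown with EGF, insulin, hydrocortisone and horse serum, were transduced and were selected with antibiotic, so that the controls had also been infected and selected. TRAM2 encodes a protein of the translocon at the endoplasmic reticulum, and YAP(5SA) is a form of YAP that the Hippo kinases cannot inactivate. By the study's methods the TRAM2 reading frame was placed in a lentiviral vector with a CMV and an EF1 promoter and puromycin resistance, and YAP(5SA) in one with human PGK and EF1 promoters and blasticidin resistance. The backbones thus differed. Selection ran on whole infected plates, and no step that picked clones for these cells is described. There were 4 control, 4 TRAM2 and 2 YAP5SA libraries of polyadenylated RNA, with 8489854 to 16314438 estimated counts each, although the design text names 3 biological replicates per condition. Control libraries A and C did not differ beyond sampling noise (chi-square per degree of freedom 1.01, p = 0.33), nor did B and D (1.02, p = 0.232), whereas every pair of the TRAM2 libraries and the YAP5SA pair differed by more. Over the 3886 genes with whole counts in B and D alone, rather than the 2897 with whole counts in all control libraries, B and D gave 1.04 (chi-square test over genes, p = 0.0408). With fractional counts included, A and C gave 1.23 and B and D 1.22, against 1.42 to 1.49 for the other control pairs. Each control pair was summed to 1 sample, giving 2 control, 4 TRAM2 and 2 YAP5SA samples. Whether these came from separate cultures is not given beyond the design text, so p-values measure the spread between these samples.

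The genes carried by the vectors were read first. Levels are counts per 1000000 counts of the genes that passed the filter, scaled between samples as in the tests (CPM). TRAM2 stood at 28.4 and 28.9 CPM in the controls. It stood at 390, 611, 250 and 460 CPM in TRAM2 A to D, and at 242 and 247 CPM in YAP5SA. Its log2 fold change was 3.90 in TRAM2 cells (adjusted p = 0.0725) and 3.10 in YAP5SA cells (adjusted p = 0.00311). All 4 TRAM2 samples lay above the controls, over a wide range. YAP1 stood at 187 CPM in both controls, at 181 to 196 CPM in TRAM2 cells and at 337 and 342 CPM in YAP5SA cells. Of 11 mammary epithelial markers, TP63 was below 1 TPM, a level scaled for transcript length and depth, in every library (0.0154 to 0.745), and the other 10 were found in all groups. Several of them moved with YAP5SA. CDH1 went from 122 to 137 TPM in control libraries to 33.5 and 36.9 TPM in YAP5SA libraries, EPCAM from 88.9 to 95.9 TPM to 13.2 and 14.3 TPM, CDH3 from 99.9 to 112 TPM to 21.4 and 25.5 TPM, and KRT5 from 1041 to 1087 TPM to 536 and 568 TPM. KRT8 (2370 to 2654 TPM in control, 4861 and 5001 TPM in YAP5SA libraries), KRT17 and KRT18 lay higher there. The summed level of 10 fibroblast markers was 61.0 to 67.7 TPM in control, 65.0 to 76.5 in TRAM2 and 121 to 124 in YAP5SA libraries, with PDGFRA, PDGFRB, COL1A2, COL3A1, DCN, LUM and THY1 below 1 TPM in every library. FAP (55.3 to 74.5 TPM in all libraries) and POSTN (1.35 to 8.96 TPM outside YAP5SA, 50.8 and 52.5 TPM in it) made up most of that sum. The part of the epithelial and fibroblast marker levels in the results for YAP5SA was not tested. On the first principal component of log2 CPM (82.8% of the variance) the YAP5SA samples stood apart from all others, and on the second (4.37%) TRAM2 B did so among the rest.

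The regions before the start sites of AXL, GAS6 and MET are shown because YAP acts through TEAD factors on DNA. These genes rose in YAP5SA cells, as did FGFR1 and FGF2, for which no sequence is shown. In the GRCh37 annotation AXL lies at chr19:41725128-41767671 (+ strand), GAS6 at chr13:114523522-114567049 (- strand) and MET at chr7:116312250-116438431 (+ strand), all as protein-coding genes. The sequences are the 250 bases upstream of RefSeq start sites (build GRCh38.p14), written 5′ to 3′ on the gene's strand, with the TEAD motif GGAATG, searched on both strands, in capitals (CATTCC where it lies on the other strand). RefSeq windows of 7 of the 10 genes were searched, 9 windows in all, each of 300 bases (250 before and 50 after the start). No window of FGFR1, PDGFB or PDGFC was among them. For FGFR1 this does not mean that RefSeq holds none.
AXL, first start, chr19:41218973-41219222, + strand: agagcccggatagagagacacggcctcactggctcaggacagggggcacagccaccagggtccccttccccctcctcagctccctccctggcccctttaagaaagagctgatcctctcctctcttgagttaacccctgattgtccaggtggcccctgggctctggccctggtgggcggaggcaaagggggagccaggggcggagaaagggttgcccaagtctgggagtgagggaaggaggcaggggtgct
AXL, second start, chr19:41226505-41226754, + strand: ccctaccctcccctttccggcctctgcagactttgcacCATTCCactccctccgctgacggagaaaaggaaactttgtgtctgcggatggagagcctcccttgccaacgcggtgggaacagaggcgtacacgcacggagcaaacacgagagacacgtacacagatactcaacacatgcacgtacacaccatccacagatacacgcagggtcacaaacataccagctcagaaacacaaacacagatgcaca
GAS6, chr13:113864077-113864326, - strand: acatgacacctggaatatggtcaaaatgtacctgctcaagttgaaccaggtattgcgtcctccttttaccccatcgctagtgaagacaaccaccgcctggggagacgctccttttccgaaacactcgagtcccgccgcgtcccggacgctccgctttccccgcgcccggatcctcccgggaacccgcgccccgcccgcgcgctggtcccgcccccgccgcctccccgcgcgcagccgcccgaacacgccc
MET, chr7:116671946-116672195, + strand: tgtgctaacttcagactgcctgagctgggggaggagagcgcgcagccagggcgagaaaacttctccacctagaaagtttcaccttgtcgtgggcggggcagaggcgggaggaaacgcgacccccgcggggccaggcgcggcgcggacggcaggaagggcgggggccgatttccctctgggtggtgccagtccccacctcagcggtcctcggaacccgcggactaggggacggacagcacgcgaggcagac

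The motif GGAATG was found in 1 of the 9 windows, that of the second AXL start, where its reverse complement began at position -212 from the start. Of all 35116 RefSeq windows of this length, those on chromosome 8 included, 4928 (14%) held it. For FGFR1, which rose in YAP5SA cells, no motif result is given. The AP-1 motif TGANTCA, searched on both strands, was found in 1 window, of TYRO3 (position -220), and in 2707 of all windows (7.71%). A match is a description of the letters only, and enhancers further away were not searched. The paper reports YAP binding at a TEAD motif that, by its position, lies inside AXL, between the starts shown and outside both windows. In cells with activated YAP, binding there fell markedly when CRISPR vectors targeted the motif. The part of that site in the AXL RNA level was not tested here. The transcript AXL-203 starts 7532 bases downstream of the first start of AXL-201, the same distance as between the 2 AXL windows.

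YAP5SA cells carried far more AXL and GAS6 RNA than controls, and roughly 2 times as much MET, FGFR1 and FGF2 RNA. VEGFC fell, and TYRO3, PDGFB and PDGFC did not pass the test. Calls required both a log2 fold change beyond 0.5 in either direction and an adjusted p under 0.05, from edgeR's quasi-likelihood test with Benjamini-Hochberg adjustment over the 15768 genes. On this rule 5 of the 9 genes tested were higher in YAP5SA cells and 1 was lower, where 4633 of all genes tested (29.4%) were called, 15.3% higher and 14.1% lower. The median log2 fold change was 0.98 over the 9 genes and -0.0093 over all genes tested. In bulk RNA, more cells with a transcript and more of it per cell cannot be told apart.

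**Figure D1:**
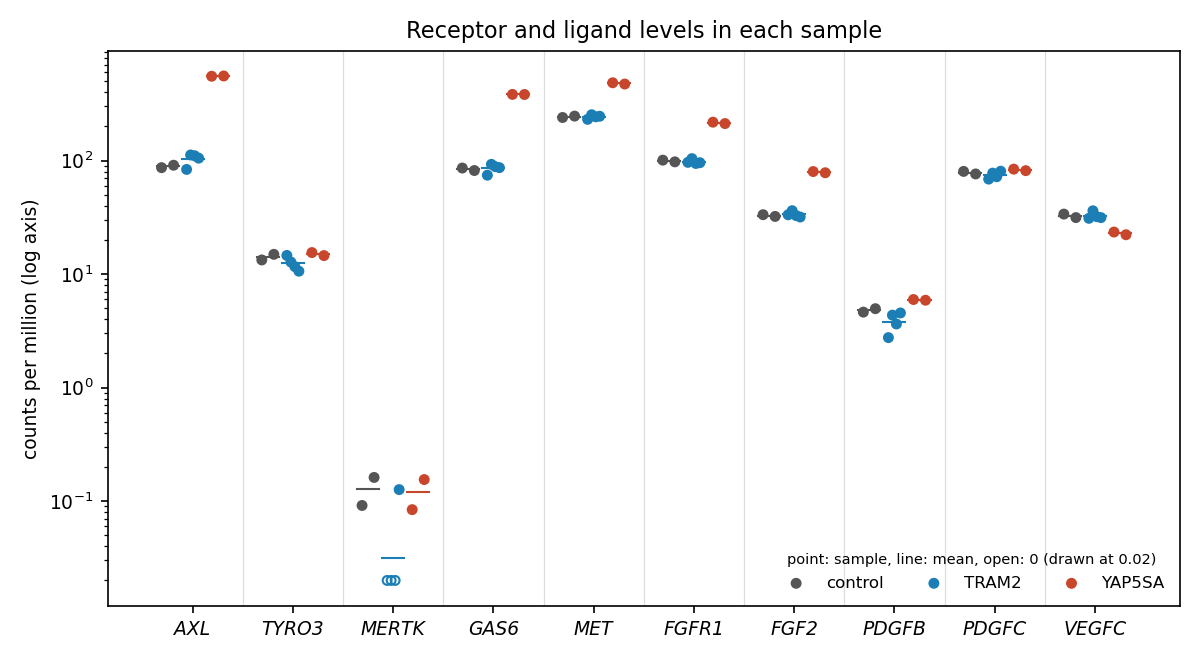
CPM (log axis) of the 10 genes in each sample, with points for samples (2 control, 4 TRAM2, 2 YAP5SA), lines for group means and open points for samples at 0, drawn at 0.02. The YAP5SA points of AXL (553 and 556), GAS6, MET, FGFR1 and FGF2 lie above all others, those of VEGFC lie below all others, and MERTK stays near 0.1.

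AXL stood at 86.6 and 91.0 CPM in the controls, at 83.6, 112, 110 and 105 CPM in TRAM2 A to D, and at 553 and 556 CPM in YAP5SA A and B. The YAP5SA samples lay far above all others, and those of TRAM2 spanned the control values. AXL was 6.25-fold higher in YAP5SA cells than in controls (log2 fold change 2.64, SE 0.12, adjusted p = 2.7e-07). Leaving out any 1 sample moved this log2 value to no less than 2.62 and no more than 2.68.

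TYRO3, a TAM receptor, was measured at 13.3 and 14.9 CPM in controls, at 14.6, 12.8, 11.6 and 10.6 CPM in TRAM2 cells and at 15.5 and 14.6 CPM in YAP5SA cells. The groups overlapped, and its log2 fold change of 0.09 in YAP5SA cells (95% interval -0.20 to 0.38) was not called. MERTK, a TAM receptor best known from phagocytes, had 5 counts over the 4 control libraries, 2 over the 4 TRAM2 libraries and 3 over the 2 YAP5SA libraries. The ratio of its count rates in YAP5SA and control cells was 0.977, with a 95% interval for counting error from 0.152 to 5.02, so that no difference in MERTK was detectable at this depth. Of the TAM receptors, only AXL was called higher in YAP5SA cells, and MERTK was not tested.

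GAS6, the ligand, stood at 85.9 and 81.7 CPM in controls, at 74.3, 92.6, 88.3 and 86.7 CPM in TRAM2 cells, and at 383 and 382 CPM in YAP5SA cells. Both YAP5SA samples lay above all others. GAS6 was 4.56-fold higher than in controls (log2 fold change 2.19, SE 0.08, adjusted p = 1.3e-10). RNA of the ligand and of its receptor AXL thus rose in the same samples. GAS6 shares 421 exonic bases with GAS6-AS1 on the opposite strand. In sums not scaled for depth, GAS6-AS1 held 64 counts in control, 166 in TRAM2 and 13 in YAP5SA libraries, against 3395, 5171 and 9489 for GAS6.

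MET, already abundant in the controls, stood at 240 and 246 CPM there, at 231, 253, 243 and 246 CPM in TRAM2 cells and at 485 and 472 CPM in YAP5SA cells. The control and TRAM2 values overlapped and the YAP5SA values lay apart. MET was 1.97-fold higher in YAP5SA cells (log2 fold change 0.98, SE 0.05, adjusted p = 1.6e-09). No count of its ligand HGF was found in any library. In the YAP5SA libraries, 0 of 26033703 counts allows up to 0.115 per 1000000 unscaled counts (3 counts, counting error only).

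FGFR1 stood at 101 and 97.5 CPM in controls, at 96.5, 104, 94.3 and 95.8 CPM in TRAM2 cells and at 218 and 212 CPM in YAP5SA cells. FGF2, a ligand made without a signal peptide, stood at 33.4 and 32.2 CPM in controls, at 33.3, 36.2, 32.8 and 31.8 CPM in TRAM2 cells and at 80.1 and 78.1 CPM in YAP5SA cells. For both genes the YAP5SA samples lay above all others. FGFR1 was 2.17-fold higher in YAP5SA cells than in controls (log2 fold change 1.12, SE 0.06, adjusted p = 7.7e-10). FGF2 was 2.41-fold higher (log2 fold change 1.27, SE 0.07, adjusted p = 2.4e-09). Both genes overlap a gene on the opposite strand. FGF2 shares 804 exonic bases with NUDT6 (388, 621 and 132 counts in control, TRAM2 and YAP5SA libraries), and FGFR1 shares 138 with LETM2 (1547, 2193 and 1380 counts). These counts are sums not scaled for depth, so they give no direction of change. All counts of the control, TRAM2 and YAP5SA libraries summed to 40054349, 59297553 and 26033703. A TruSeq RNA kit stands in the labels but a strand-specific kit in the study's methods, and the strand setting of the counting is not stated, so reads in the shared bases may have been assigned to either gene.

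PDGFB, a ligand of both PDGF receptors, was low: 4.62 and 4.96 CPM in controls, 2.76, 4.35, 3.63 and 4.54 CPM in TRAM2 cells, and 5.97 and 5.88 CPM in YAP5SA cells. The YAP5SA samples lay above the others by about 1 CPM, but its log2 fold change against control, 0.31 (95% interval -0.15 to 0.77), was not called. PDGFC, which is secreted in a latent form, stood at 80.3 and 76.2 CPM in controls, at 68.7, 77.5, 72.1 and 80.6 CPM in TRAM2 cells, and at 84.1 and 81.5 CPM in YAP5SA cells. Its log2 fold change of 0.08 (95% interval -0.07 to 0.24) excluded a change beyond 0.5. VEGFC, a lymphangiogenic factor, stood at 33.8 and 31.5 CPM in controls, at 31.0, 36.1, 32.0 and 31.4 CPM in TRAM2 cells, and at 23.5 and 22.2 CPM in YAP5SA cells. Both YAP5SA samples lay below all others. The log2 fold change of VEGFC was -0.52 (SE 0.09, adjusted p = 0.000297), just past the limit of 0.5, and it fell short of that limit without control sample 1 (-0.46) or without YAP5SA B (-0.47).

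TRAM2 overexpression left none of the 9 genes called against control, where 9 of all 15768 genes (0.0571%) were called. None of the 9 passed an unadjusted p of 0.05 either, as 1994 of all genes tested did. DESeq2 called 0 of them and 13 genes in all. TRAM2 itself was not called by edgeR (log2 fold change 3.90, adjusted p = 0.0725) but was called by DESeq2 (adjusted p = 5.95e-26). AXL had a log2 fold change of 0.21 (95% interval -0.03 to 0.46, adjusted p = 0.459). TRAM2 A, at 83.6 CPM, lay below both controls and the other three TRAM2 samples lay above them. Without TRAM2 A the log2 value of AXL was 0.30 (adjusted p = 0.0175), still short of 0.5, without TRAM2 B it was 0.17 (adjusted p = 0.602), and over all alternatives its adjusted p ran from 0.000277, with TRAM2 C and D alone, to 0.917. The intervals of GAS6 (-0.12 to 0.18), MET (-0.10 to 0.10), FGFR1 (-0.13 to 0.08), FGF2 (-0.11 to 0.17), PDGFC (-0.20 to 0.07) and VEGFC (-0.16 to 0.16) excluded log2 changes beyond 0.2 in either direction, and those of TYRO3 (-0.44 to 0.06) and PDGFB (-0.72 to 0.09) were wider. In the TRAM2 group, A and B differed from C and D in 10 genes of 15768 (0.0634%), none of them among the 9 described. With DESeq2 the count was 12 genes, again none of the 9, and with edgeR 1 of the 9, TYRO3 (log2 difference 0.30, higher in A and B), had an unadjusted p under 0.05.

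**Figure D2:**
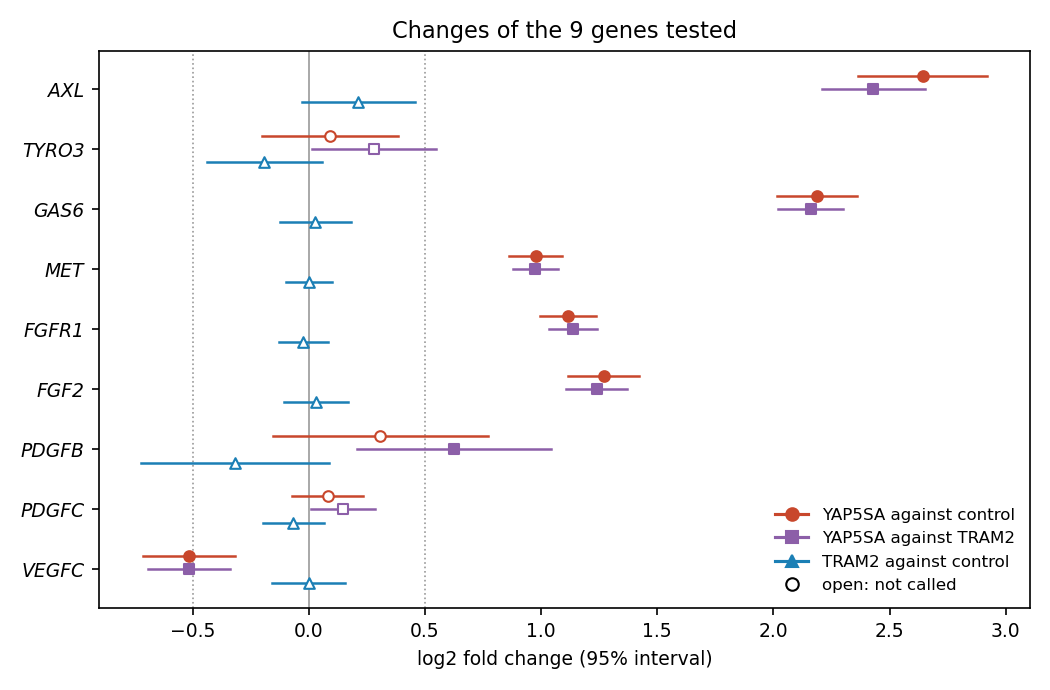
Log2 fold changes (x axis) with 95% intervals of the 9 genes tested in the comparisons named in the legend, where filled symbols were called and dotted lines mark 0.5 in either direction. AXL (2.64 against control) and GAS6 (2.19) lie furthest to the right, MET, FGFR1 and FGF2 lie near 1, and every TRAM2 symbol is open.

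Set directly against TRAM2 cells, YAP5SA cells were higher in 6 of the 9 genes and lower in 1, where 29.4% of all genes tested were called, 14.9% higher and 14.6% lower. This comparison shares its YAP5SA samples with the one against control. AXL was 5.39-fold higher (log2 fold change 2.43, SE 0.10, adjusted p = 8.6e-08) and GAS6 4.47-fold higher (2.16, SE 0.06, adjusted p = 1.5e-11). MET (0.98), FGFR1 (1.14) and FGF2 (1.24) were also higher on the log2 scale, each with an SE of 0.04 to 0.06. PDGFB was the sixth, at a log2 fold change of 0.63 (SE 0.19, adjusted p = 0.0148), and it was not called without YAP5SA A (adjusted p = 0.0788), without YAP5SA B (0.0757) or with DESeq2 (0.0677). VEGFC was lower by a log2 value of -0.52 (adjusted p = 0.000115), and its value was -0.47 without TRAM2 B and without YAP5SA B.

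Levels can be compared between genes only per length, as TPM. Summed over all transcripts, FGFR1 was the highest of the 10 in YAP5SA cells (253 ± 9.96 TPM, SD, n = 2), followed by MET (111 ± 4.08), AXL (83.8 ± 1.89), GAS6 (76.4 ± 0.518), PDGFC (29.5 ± 2.52) and FGF2 (19.7 ± 0.567). VEGFC (4.96 ± 0.155), TYRO3 (4.84 ± 0.310), PDGFB (1.93 ± 0.0722) and MERTK (0.0620 ± 0.0688) came last, and VEGFC and TYRO3 did not differ beyond their spread. In controls (n = 2) the order was FGFR1 (123 ± 16.7), MET (59.5 ± 0.541), PDGFC (28.9 ± 2.0), GAS6 (17.3 ± 0.632) and AXL (13.5 ± 0.115), with FGF2 (7.49 ± 0.151) and VEGFC (7.48 ± 0.583) side by side. On this sum AXL lay below PDGFC in controls and above it in YAP5SA cells.

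The high sum of FGFR1 rested on short transcripts. A noncoding transcript of 276 bases, FGFR1-235, held 45.8% of its TPM in YAP5SA cells (group mean), and the 475-base transcript MET-205 held 50.3% of that of MET. Over protein-coding transcripts of at least 1000 bases, a sum chosen after the values were seen, YAP5SA cells held 81.6 TPM of AXL, 66.7 of GAS6, 44.1 of MET, 9.28 of FGFR1 and 4.0 of FGF2, against 13.3, 13.8, 22.5, 4.76 and 1.71 TPM in controls. On this scale AXL, not FGFR1, was the highest of the 10 in YAP5SA cells, and MET was the highest in controls. PDGFC held 1.47 TPM in controls on this scale, below the 13.3 TPM of AXL. The scale leaves out PDGFC-201, a transcript of 2987 bases annotated as subject to nonsense-mediated decay. PDGFC-201 held 7.34 TPM and 58.0% of the PDGFC counts in controls (group means). The order of the genes therefore depends on which transcripts are summed, while the direction of the changes called in YAP5SA cells does not.

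AXL rose without a visible shift among its transcripts. AXL-201 held 18% to 20.6% of its TPM in the control libraries and 18.1% to 18.6% in the YAP5SA libraries. AXL-203, which begins at the second start, held 37.8% to 51.4% in control, 34.6% to 43.7% in TRAM2 and 41.3% to 46.5% in YAP5SA libraries, so the ranges overlapped. GAS6-201 held 69.6% to 85.8% of GAS6 in control and 85.1% to 89.5% in YAP5SA libraries, and FGF2-203 held 75.8% to 79.5% and 79.2% to 80.2%. In PDGFC, whose sum was not called, the 524-base noncoding transcript PDGFC-206 held 28% to 37.2% in control, 30.5% to 36% in TRAM2 and 17.8% to 19.5% in YAP5SA libraries, and the 786-base noncoding transcript PDGFC-204 held 7.12% to 10.4%, 8.37% to 11.2% and 18% to 20.6%. For these transcripts the YAP5SA libraries lay outside the range of all others. Such shares are estimates from short reads over shared exons, and they were not tested.

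**Figure D3:**
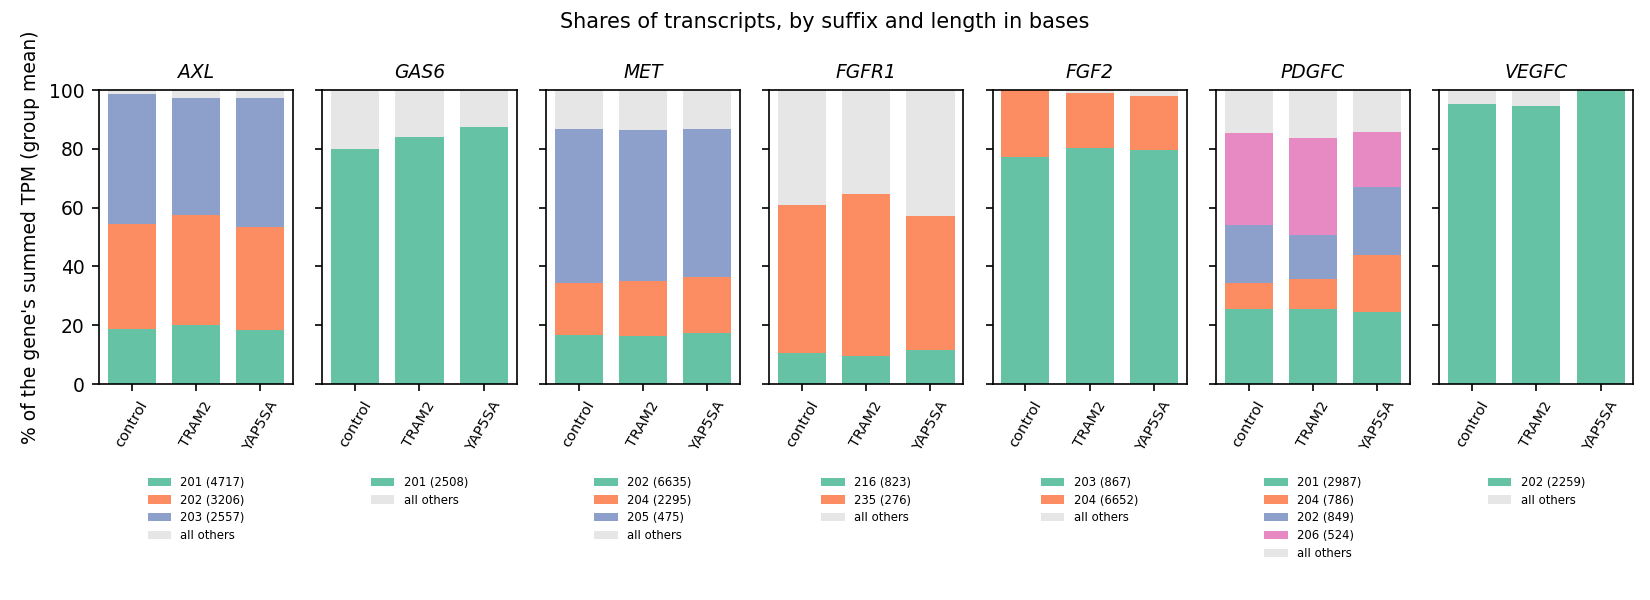
Share of each gene's summed TPM (y axis, percent, group mean) held by the transcripts that reached 10% in any group, with transcript suffix and length in bases in the legends. AXL keeps nearly the same division in the 3 groups (AXL-201 at 18.8% in control and 18.4% in YAP5SA), while PDGFC-206 falls from 31.5% in control to 18.7% in YAP5SA and PDGFC-204 goes from 8.98% to 19.3%.

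The other genes of these pathways were taken as lists. Beside the counts of each list, 15.3% of all genes tested were called higher in YAP5SA cells than in controls and 14.1% lower. Of 14 tested genes that make, cleave or transmit TAM signals, 3 were higher and 3 lower in YAP5SA cells than in controls (median log2 fold change 0.20). PROS1, which encodes protein S, stood at 4.76 and 4.58 CPM in controls, at 4.72 to 7.94 CPM in TRAM2 cells and at 138 and 134 CPM in YAP5SA cells. Its log2 fold change was 4.86 (SE 0.14, adjusted p = 2.9e-11), so that PROS1 and GAS6 both rose with AXL. ADAM10, a protease known to shed AXL from the cell surface, was higher by 1.03 on the log2 scale (SE 0.05). PIK3R1, a regulatory subunit of PI3 kinase, was at -1.33 (SE 0.09), and FURIN, a proprotein convertase, at -0.79 (SE 0.08, and -1.48 with transcript lengths as offset). GGCX, the carboxylase that GAS6 and protein S need for activity, had a log2 fold change of 0.49 and was not called.

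In the HGF and MET list, 1 of 20 tested genes was higher in YAP5SA cells and 8 were lower, and the median log2 fold change was -0.05. ST14, which encodes matriptase, an activator of HGF, stood at 121 and 126 CPM in controls and at 12.9 and 14 CPM in YAP5SA cells, a log2 fold change of -3.19 (SE 0.10, adjusted p = 1.4e-11). SPINT2, an inhibitor of such proteases, was at -0.95 (SE 0.05), and MST1R, the receptor most like MET, was at -2.95 (SE 0.20, and -3.90 with transcript lengths as offset). The gene that rose was PTPRJ, a receptor phosphatase known to act on MET, at 1.85 (SE 0.10). The other called genes of the list, named after their values were seen, were the protease genes TMPRSS13, PLAU and F12, the protease inhibitor SPINT1 and LRIG1, an inhibitor of receptor kinases, all lower. LRIG1 lay just past the limit (-0.51, adjusted p = 0.0344) and was not called with DESeq2 (adjusted p = 0.172).

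Of 17 tested genes of FGF signalling, 6 were higher and 3 lower in YAP5SA cells (median log2 fold change 0.47). SDC2, a heparan sulfate proteoglycan that can hold FGF2 at the cell surface, had 6 counts over the control libraries, 23 over the TRAM2 libraries and 686 over the YAP5SA libraries. Its log2 fold change was 7.47 (SE 0.30, adjusted p = 6.5e-11), and it was 6.96 without control sample 1 and 8.12 without control sample 2. FGF5, a secreted ligand, had 5, 8 and 166 counts (log2 fold change 5.67, SE 0.46). FLRT2 was higher by 3.10 (SE 0.14) and FLRT3 was at -2.18 (SE 0.07), both membrane proteins that can bind FGF receptors. FGFBP1, a carrier that frees FGF2 from the matrix, was named after its values were seen and was at -4.99 (SE 0.24), from 56.9 and 55.8 CPM in controls to 1.26 and 2.25 CPM in YAP5SA cells. Among the receptors, FGFR2 and FGFR4 were below 1 TPM in every group mean (0.437 to 0.744), and FGFR3 had 1 count in all libraries together.

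In the PDGF and VEGF list, 5 of 14 tested genes were higher and 5 lower (median log2 fold change -0.03). PLAT, which encodes tissue plasminogen activator, an enzyme that activates latent PDGFC, stood at 1.28 and 1.51 CPM in controls, at 1.33 to 2.69 CPM in TRAM2 cells and at 40.8 and 38.4 CPM in YAP5SA cells (log2 fold change 4.83, SE 0.20, adjusted p = 1.2e-10). NRP2, a co-receptor for VEGFC, went from 199 and 204 CPM in controls to 19.7 and 19.0 CPM (-3.38, SE 0.11), whereas NRP1 was higher by 0.63 (SE 0.05). PCSK5, a convertase that processes VEGFC, was at -4.42 (SE 0.24), with -5.04 without YAP5SA B. Chosen after their values were seen, VEGFA was at -2.10 (SE 0.20), PDGFA at -0.70 (SE 0.09), CCBE1, which is needed for VEGFC processing, at 2.05 (SE 0.12), and LRP1 at 3.25 (SE 0.19). The receptors that these ligands bind had few counts. PDGFRA had 1 count in all libraries, PDGFRB had 15, 15 and 7 counts over control, TRAM2 and YAP5SA libraries, FLT4 had 1, 4 and 1, and KDR had 95, 195 and 46 and was not called (log2 fold change -0.33).

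**Figure D4:**
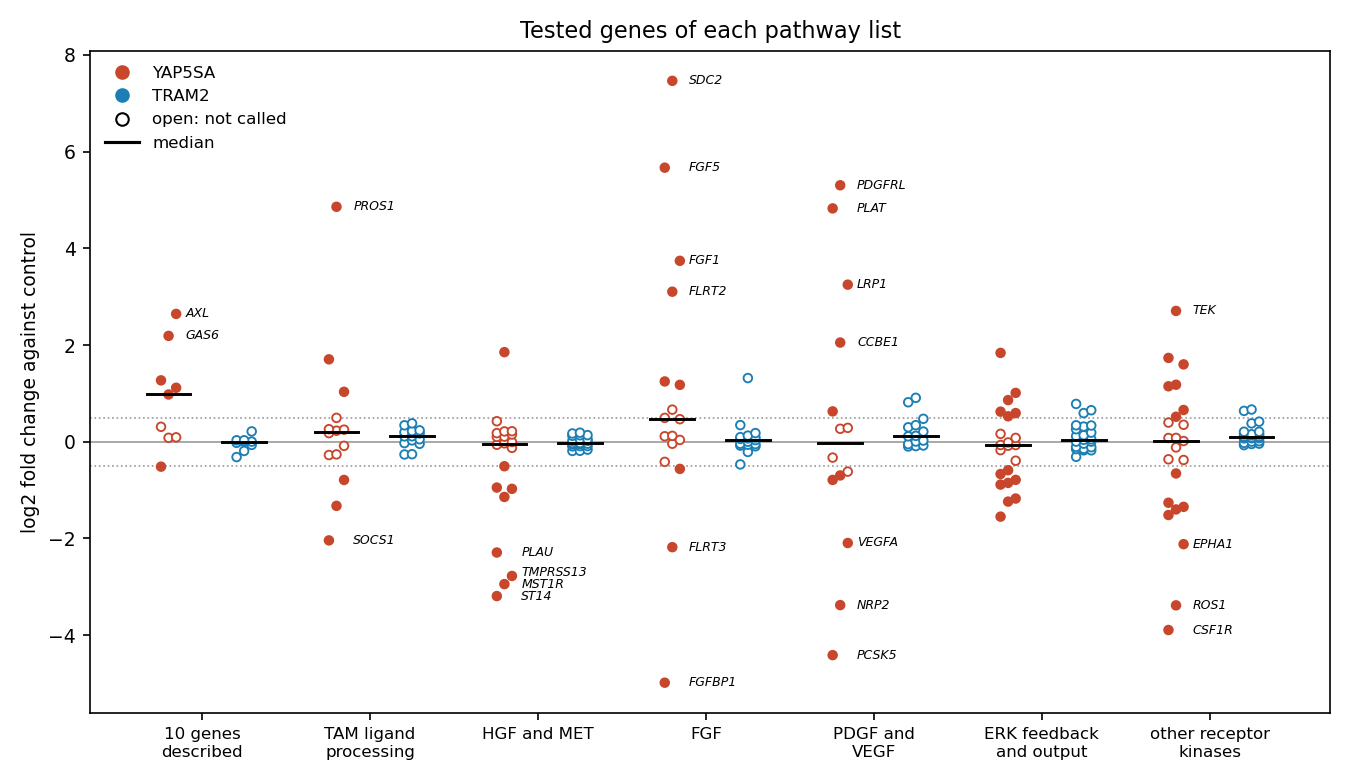
Log2 fold change against control (y axis) of every tested gene of each list, for YAP5SA and TRAM2, with filled points for called genes, bars for list medians and names for genes beyond 1.9 in either direction in YAP5SA. The YAP5SA points run from FGFBP1 at -4.99 to SDC2 at 7.47 while every TRAM2 point is open.

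Genes of ERK feedback and output, which lie downstream of all these receptors, went both ways: 6 of 22 were higher and 8 lower in YAP5SA cells (median log2 fold change -0.08). PHLDA1 (-1.24, SE 0.07) and IER3 (-1.18, SE 0.08), both induced early by growth factors, were lower, as was SPRY2 (-1.55, SE 0.12), a feedback inhibitor of receptor kinases. Other feedback genes of the list, chosen after their values were seen, went both ways. Mean CPM in controls and YAP5SA cells was 11.1 and 22.4 for DUSP5, 24.6 and 35.6 for SPRY4, and 37.8 and 56.9 for SPRED1. It was 357 and 206 for DUSP4, and 26.4 and 20.1 for DUSP6. CCND1, which encodes cyclin D1, was higher by 0.62 (SE 0.05). Of 23 other receptor tyrosine kinases tested, 7 were higher and 8 lower (median log2 fold change 0.01). Those with the smallest adjusted p were lower: ROS1, from 180 and 165 CPM to 17.2 and 15.9 CPM (-3.39, SE 0.07, adjusted p = 1.4e-13), DDR1, a collagen receptor (-1.40, SE 0.07), CSF1R (-3.90, SE 0.24) and the ephrin receptor EPHA1 (-2.12, SE 0.17). EGFR, chosen after its values were seen, went the other way, from 694 and 702 CPM in controls to 1090 and 1111 CPM in YAP5SA cells. Between 42.9% and 71.4% of the tested genes of each list were called, against 29.4% of all genes tested, and the lists were chosen with earlier results known. In TRAM2 cells no gene of any list was called against control, and the 24 genes named by rule had log2 fold changes from -0.19 (SPINT2) to 1.32 (SDC2). Of the 22 ERK genes, however, 10 had an unadjusted p under 0.05 in edgeR there, against 1994 of all 15768 genes tested. Their log2 values were positive in 14 and negative in 8 of the 22. DUSP6, chosen after its values were seen, stood at 26.7 and 26.2 CPM in controls. It stood at 35.2, 49.4, 40.1 and 34.7 CPM in TRAM2 A to D.

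The genes most like AXL over the 8 samples, by Pearson correlation of log2 CPM among 12522 protein-coding genes tested, were ATP8B1 (r = 0.998), IGF2BP2 (0.998) and TJP1 (0.998). Their log2 fold changes in YAP5SA cells were smaller than that of AXL, at 1.61, 1.22 and 0.83. Those most like MET were LAMC1 (r = 0.999), DAP (0.999) and ACTN1 (0.999), at 1.07, 1.78 and 1.11. Such values are common here, since 1572 genes had r above 0.95 with AXL and 1649 with MET, and they rest on the distance between the 2 YAP5SA samples and the other 6.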

How the data were processed

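Polyadenylated RNA of 10 MCF10A libraries was sequenced, and the authors trimmed reads with cutadapt and quantified transcripts with Salmon, per the labels (neither versions nor a genome build or strand setting are in the labels). The deposited files hold, per transcript, an estimated count and a TPM (a level scaled for transcript length and depth), with control, TRAM2 and YAP5SA read from sample titles. Estimated counts were summed per gene and rounded for the tests. Depth per library was 8489854 to 16314438 estimated counts. The 4 control libraries were summed to 2 samples after a chi-square test of counts over 2897 genes with whole counts and a mean of at least 50. The 8 samples were fitted together in edgeR 4.0.16 (R 4.3.3) with TMM scaling, filterByExpr and a robust quasi-likelihood test. Calls required a log2 fold change beyond 0.5 and an adjusted p under 0.05. The procedure was tested on simulated data. TPM served for levels between genes and for shares of transcripts, with no test. Alternatives were the 10 libraries as deposited, DESeq2 1.42.0, another scaling, no filter, transcript lengths as offset, subsets of samples and each sample left out. The 10 genes and the lists were chosen with earlier results of these data known. Named were all 10 genes, up to 4 called genes per list with the smallest adjusted p in YAP5SA against control, any list gene called in TRAM2 cells, the 3 genes most correlated with AXL and with MET, and TRAM2 and YAP1. The genome coordinates of promoters are those of RefSeq on GRCh38.p14, and gene overlaps were taken from GENCODE v44 on GRCh37 by gene ID.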

Additional observations from a re-analysis of the deposited data

How the results depend on the processing

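Against control and against TRAM2 cells, AXL, GAS6, MET, FGFR1 and FGF2 were called higher in YAP5SA cells under every alternative run. The fall of VEGFC was not called without control sample 1 or YAP5SA B against control, nor without TRAM2 B or YAP5SA B against TRAM2 cells, so that the count of genes lower ran from 0 to 1 in both comparisons when each sample was left out. No alternative called any of the 9 genes in TRAM2 cells against control. The count of all genes called there was 9, and it was 67 with the 10 libraries as deposited, 136 without the filter on low counts, 4 with transcript lengths as offset, 25 with libraries A and B only, 35 with TRAM2 A and B only, 106 with TRAM2 C and D only, and 3 to 39 with each sample left out. TRAM2 itself was called in 9 of 18 alternatives, with log2 values from 3.64 to 4.20, and of the pathway lists up to 3 ERK genes and 1 PDGF or VEGF gene were called. For TRAM2 A and B against C and D it was 10, and 21 with the 10 libraries, 126 without the filter, 1 with the offset, 4 with the compared groups alone, and 1 to 247 with each sample left out. The letters did not pair the samples (correlations of deviations between -0.020 and 0.051). With the replicate block on the letter over the 10 libraries, 69 genes were called in TRAM2 cells against control, 2 between TRAM2 A and B and C and D, 4493 in YAP5SA against control and 4283 against TRAM2, with no other change for the 9 genes but VEGFC in TRAM2 cells, below.

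In TRAM2 cells against control, log2 values near 0 turned sign. VEGFC (-0.0007) became 0.0047 with the 10 libraries, 0.0059 with the replicate block, 0.0051 with DESeq2, 0.0096 with median-of-ratios scaling, 0.0036 with the offset, 0.0004 with the compared groups alone, 0.0477 with libraries A and B, 0.0441 with TRAM2 A and B, and -0.0519 to 0.0573 with each sample left out. MET (0.0015) became -0.0204 without the filter, -0.0059 with the offset, -0.0126 with libraries A and B, -0.0018 with TRAM2 A and B, and -0.0181 to 0.0257 with each sample left out. GAS6 became -0.0239 with the offset, -0.0014 with TRAM2 A and B and -0.0097 to 0.0883 with each sample left out. FGFR1 became 0.1117 with the offset, 0.0638 with libraries A and B, 0.0193 with TRAM2 A and B and -0.0552 to 0.0067 with each sample left out. FGF2 became -0.0184 with TRAM2 C and D and -0.0091 to 0.0606 with each sample left out. The cause was not tested. Of the other genes named in YAP5SA against control, the offset moved the log2 value of MST1R to -3.90, FURIN to -1.48, LRP1 to 4.05, CSF1R to -4.67 and FGF5 to 6.31, and libraries A and B alone gave 4.81 for FGF5. All stayed called. PDGFB in YAP5SA against TRAM2 cells was not called with DESeq2 or the offset (adjusted p = 0.0691). With 2 control and 2 YAP5SA samples, an SE rests on the spread shared by all groups, and for MERTK the depth allows no statement.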
